A study of Homo sapiens with 6 samples.

Results

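The transcripts of 10 genes were examined in T24 cells, an established human bladder cancer cell line. They encode the 5 NF-κB subunits (NFKB1, NFKB2, RELA, RELB and REL), 4 IκB proteins (NFKBIA, NFKBIB, NFKBIE and NFKBIZ) and the ubiquitin-editing enzyme A20 (TNFAIP3). The members were chosen by gene symbol, and all 10 were found among the 58174 genes of each file. Polyadenylated RNA was sequenced from 3 shRNA-NC samples, which carried a scrambled control shRNA, and 3 shRNA-UBC9 samples, which carried an shRNA against UBC9, the conjugating enzyme of sumoylation. In both groups the shRNA was delivered by lentivirus and the cells were selected with puromycin. The methods give 1 hairpin sequence against UBC9, so the response to that hairpin and the response to the loss of UBC9 cannot be told apart. No label states that replicates came from separate cultures, so p-values measure the spread between these samples only.

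NF-κB proteins act as dimers that bind κB sites in DNA. In resting cells the IκB proteins hold the dimers in the cytoplasm. Inflammatory signals activate the IκB kinases, IκB is degraded, and the dimers enter the nucleus. Their targets include genes of their own inhibitors, among them NFKBIA and TNFAIP3, which closes a negative feedback loop. IκBα, the product of NFKBIA, is also a known SUMO substrate.

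Levels are given as RPKM (reads per kilobase of transcript, scaled to the mapped reads of the sample). Mapped reads were estimated from genes whose RPKM matched 1 read at their GENCODE v44 exon length. They numbered 29800000 to 34600000 per sample in shRNA-NC and 28200000 to 36100000 in shRNA-UBC9. Of 14 urothelial and epithelial markers 8 passed the expression filter, and KRT7, KRT8 and KRT18 were abundant, whereas CDH1 and the uroplakin genes stayed under the filter and KRT5 was listed at 0 in every sample. In that list 7 of the 8 tested markers were lower in shRNA-UBC9 and passed the test, as did 18.0% of all tested genes. The other tested marker, EPCAM, averaged 0.658 RPKM in shRNA-NC and 1.505 RPKM in shRNA-UBC9. Its groups overlapped, and its log2 fold change of 0.996 did not pass the test (limma, adjusted p = 0.0984). The summed level of the list ranged from 971.4 to 1143 RPKM in shRNA-NC and from 441.3 to 577.5 RPKM in shRNA-UBC9. Of 5 mesenchymal markers, all tested, none was a DEG and 1 passed the test, ZEB2, which was higher. The median log2 fold change of these mesenchymal markers was -0.13. Of 10 leukocyte and endothelial markers, 3 passed the filter. PTPRC, the pan-leukocyte marker, averaged 0.0605 and 0.0549 RPKM in the 2 groups, and MS4A1 was at 0 throughout. The summed level of that list was 5.34 to 6.82 RPKM in shRNA-NC and 19.9 to 50.03 RPKM in shRNA-UBC9, where CD68, a lysosomal protein, accounted for most of it. Of the 3 tested markers CD68 was an up-regulated DEG, CD14 did not pass the test, and CDH5, the endothelial cadherin, was a down-regulated DEG with 2.87 ± 0.29 RPKM in shRNA-NC and 0.619 ± 0.390 RPKM in shRNA-UBC9 (SD, n = 3 each). The part of these marker shifts in the results was not tested.

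Of the 10 members, 8 were expressed at a higher level in shRNA-UBC9, none was lower, and 5 changed by more than 2-fold. TNFAIP3 rose the most, about 10.7-fold. NFKBIZ rose 4.46-fold, RELB 3.98-fold, NFKB2 3.40-fold and NFKBIA 3.16-fold. NFKB1, RELA and NFKBIE rose by 1.36- to 1.51-fold. REL and NFKBIB did not pass the test. These folds come from log2(RPKM + 0.1), fitted with limma over 12428 genes with at least 0.5 RPKM in at least 3 of the 6 samples, a filter that all 10 members passed. A gene is called a differentially expressed gene (DEG) with an absolute log2 fold change above 1 and a Benjamini-Hochberg adjusted p-value below 0.05. By this rule 5 of the 10 members were up-regulated and 0 down-regulated, against a background of 5.2% and 2.7% of all tested genes. At an adjusted p-value below 0.05 and any fold change, 8 members were higher and 0 lower, against 18.8% and 18.0%. In the same 8 members the lowest shRNA-UBC9 value lay above the highest control value, as in 25.7% of the tested genes, and none showed the opposite, as in 25.4%. The median log2 fold change was 1.13 for the members and 0.005 for all tested genes. With 3 samples per group the smallest p of an exact two-sided permutation test is 0.1, which each of these 8 members reached. In bulk RNA, a higher level in each cell and a larger share of cells with the transcript cannot be told apart.

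**Figure D1:**
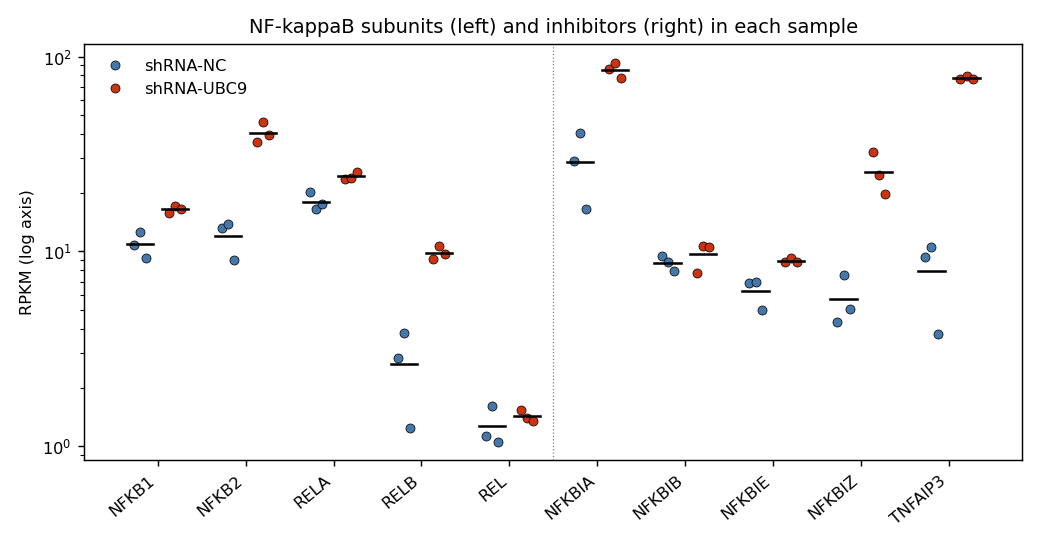
RPKM of each member in each of the 6 samples on a log axis, with shRNA-NC in blue and shRNA-UBC9 in red. Points are samples in the order of replicates 1 to 3 and black bars are group means. The groups overlap only for REL and NFKBIB, and TNFAIP3 moves from 3.76 to 10.6 RPKM in shRNA-NC to 77.0 to 79.6 RPKM in shRNA-UBC9.

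The promoters of the members were searched for the κB consensus motif, since many NF-κB genes are themselves bound by NF-κB. RefSeq promoter windows (GRCh38.p14, 250 bases before to 50 bases after each start site) were matched by symbol for 8 of the 10 members. RELB and NFKBIE had no entry. The consensus, 10 bases long and searched on both strands, occurred in at least 1 window of 7 of the 8 members, and in 824 of the 9180 tested genes with a window (8.98%). The narrower motif GGGANTTTCC, which is contained in the consensus, was held by the same 7 members and by 0.795% of those genes. The single match GGGAATTTCC, on either strand, was found in 5 members (NFKB1, NFKBIA, NFKBIB, NFKBIZ and REL) and in 51 of all 35116 windows, or 0.145%. It was picked as the match found in the most members, so this contrast is a description only. The share counts windows, not genes, and includes those of the members. RELA was the member with windows and no match. A match describes the letters of the window only and is not a binding site.

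The 4 DEGs with a window all held a match, as did 3 members that were not DEGs (NFKB1, REL and NFKBIB), so that a match did not separate the genes that rose by more than 2-fold from the rest. Matches that overlapped, on either strand, were joined into a stretch longer than 10 bases. The second match of TNFAIP3 is left in lower case in the flank of the first. The matched stretches are shown in capitals with their flanks to compare them, 5′ to 3′ on the strand of the gene. They lie at chr6:137867177-137867216 (plus strand, TNFAIP3), chr14:35404806-35404845 (minus, NFKBIA), chr3:101827752-101827791 (plus, NFKBIZ), chr10:102394456-102394496 (plus, NFKB2, middle of 3 windows), chr10:102395669-102395708 (plus, NFKB2, last window), chr4:102501295-102501334 (plus, NFKB1), chr2:60881512-60881552 (plus, REL) and chr19:38899926-38899966 (plus, NFKBIB).
TNFAIP3: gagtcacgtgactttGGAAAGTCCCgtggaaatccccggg
NFKBIA: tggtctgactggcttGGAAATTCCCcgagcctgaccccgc
NFKBIZ: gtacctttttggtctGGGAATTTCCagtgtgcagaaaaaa
NFKB2 middle window: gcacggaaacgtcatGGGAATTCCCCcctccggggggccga
NFKB2 last window: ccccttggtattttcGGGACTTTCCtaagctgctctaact
NFKB1: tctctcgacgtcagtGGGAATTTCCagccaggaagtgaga
REL: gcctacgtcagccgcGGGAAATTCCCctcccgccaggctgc
NFKBIB: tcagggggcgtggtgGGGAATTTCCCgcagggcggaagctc

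The matches began 67 bases before the start site in TNFAIP3, 81 in NFKBIA, 223 in NFKBIZ, 107 and 21 in NFKB2, 49 in NFKB1, 47 in REL and 28 in NFKBIB. Further matches in NFKB2 and NFKBIZ are not shown. In TNFAIP3 a second match began 55 bases before the start, 12 bases downstream of the first. The windows of the best known feedback genes are given whole, with every consensus match in capitals. That of TNFAIP3 is chr6:137867009-137867308 on the plus strand and that of NFKBIA is chr14:35404700-35404999 on the minus strand.
TNFAIP3 window: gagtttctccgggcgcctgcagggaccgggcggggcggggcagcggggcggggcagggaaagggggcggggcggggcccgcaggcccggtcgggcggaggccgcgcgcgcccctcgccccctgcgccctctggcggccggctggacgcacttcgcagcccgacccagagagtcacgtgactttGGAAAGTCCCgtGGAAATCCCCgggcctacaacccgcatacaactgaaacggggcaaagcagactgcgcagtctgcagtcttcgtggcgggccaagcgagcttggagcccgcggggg
NFKBIA window: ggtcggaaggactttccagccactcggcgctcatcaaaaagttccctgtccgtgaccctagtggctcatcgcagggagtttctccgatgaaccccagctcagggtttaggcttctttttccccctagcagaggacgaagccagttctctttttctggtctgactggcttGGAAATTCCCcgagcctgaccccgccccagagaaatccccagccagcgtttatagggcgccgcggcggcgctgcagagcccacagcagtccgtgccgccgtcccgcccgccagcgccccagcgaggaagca

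Among the subunits, the members of the alternative pathway rose the most. NFKB2 encodes p100, which is processed to p52, the usual partner of RELB. NFKB2 had 13.2, 13.8 and 9.08 RPKM in shRNA-NC replicates 1, 2 and 3 and 36.2, 45.9 and 39.7 RPKM in shRNA-UBC9. The lowest shRNA-UBC9 value was far above the highest shRNA-NC value, and the log2 fold change was 1.76 (SE 0.17, adjusted p = 0.000238). RELB had 2.85, 3.83 and 1.24 RPKM in shRNA-NC and 9.11, 10.6 and 9.75 RPKM in shRNA-UBC9. The groups did not overlap, although shRNA-NC replicate 3 was well below the other controls. For RELB limma gave a log2 fold change of 1.99 (SE 0.34, adjusted p = 0.00292), which ranged from 1.54 without shRNA-NC replicate 3 to 2.32 without shRNA-NC replicate 2. The value of RELB in shRNA-NC replicate 3 rests on 127 reads, the fewest behind any member, with a counting error of 8.87%.

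The subunits of the canonical pathway changed less. RELA encodes p65, the main activating subunit, and NFKB1 encodes p105, the precursor of p50. RELA had 20.1, 16.4 and 17.4 RPKM in shRNA-NC and 23.6, 23.7 and 25.7 RPKM in shRNA-UBC9. All shRNA-UBC9 samples were higher, and the log2 fold change of 0.44 (SE 0.10, adjusted p = 0.00962) lay under the cutoff of 1. NFKB1 had 10.9, 12.6 and 9.30 RPKM in shRNA-NC and 15.7, 17.1 and 16.6 RPKM in shRNA-UBC9, again without overlap. Its log2 fold change was 0.60 (SE 0.12, adjusted p = 0.00569). REL encodes c-Rel, a subunit best known from lymphocytes, and had the lowest mean RPKM of the members in both groups. REL had 1.13, 1.61 and 1.06 RPKM in shRNA-NC and 1.54, 1.39 and 1.34 RPKM in shRNA-UBC9. The highest REL value was a control, the groups overlapped, and the log2 fold change of 0.18 (SE 0.17) did not pass the test (adjusted p = 0.446). In the GENCODE v44 annotation 33.3% of the exonic bases of REL are also exonic in another gene, and whether strand was used in counting is not stated, so reads of the pair may not be separated.

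Because RPKM is scaled to length, the subunit transcripts were set beside each other within a sample. The gene lengths come from an annotation whose release is not given, so shares and ranks between genes depend on them. For NFKB1 the length that made the reads whole was 6257 bases, against 15679 exonic bases in GENCODE v44. For RELA these lengths were 5464 and 5457 bases. Changes of a single gene between the groups keep the same length. Their summed level was 48.1, 48.3 and 38.1 RPKM in shRNA-NC and 86.2, 98.7 and 93.0 RPKM in shRNA-UBC9, with no overlap. The share of NFKB2 in this sum went from 26.6% ± 2.5 to 43.7% ± 2.4 (SD, n = 3 each). RELB went from 5.70% ± 2.36 to 10.6% ± 0.15. RELA made up 40.5% ± 5.9 in shRNA-NC, where it was the most abundant subunit, and 26.3% ± 2.0 in shRNA-UBC9, where NFKB2 exceeded it. NFKB1 went from 24.4% ± 1.8 to 17.8% ± 0.45 and REL from 2.82% ± 0.49 to 1.55% ± 0.21. For each of the 5 shares the groups did not overlap (exact two-sided permutation test, p = 0.1, the smallest possible). The shares of a sample add up to the whole, so these are not 5 separate results. The share of REL was lower although its level overlapped between the groups. The level of NFKB2 relative to NFKB1 was 1.10 ± 0.12 in shRNA-NC and 2.47 ± 0.20 in shRNA-UBC9 (SD, n = 3 each). RELA and NFKB1 thus had smaller shares at higher levels.

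**Figure D2:**
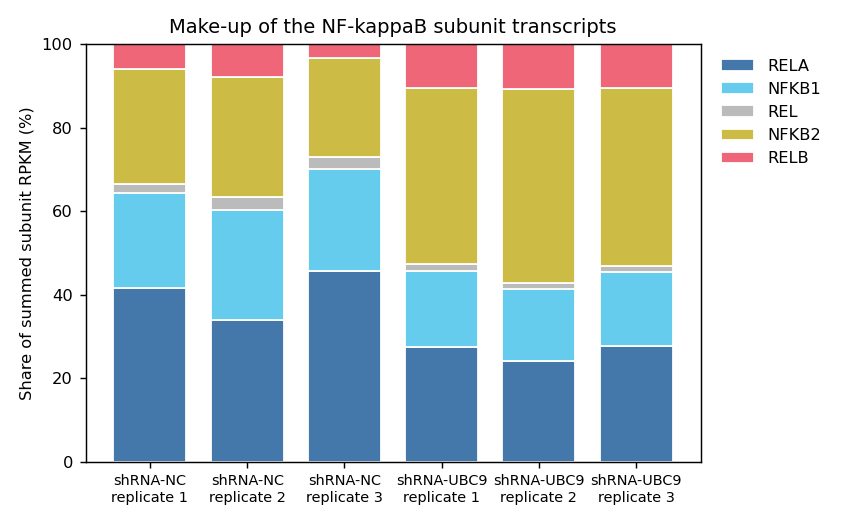
Stacked bars give the share of each NF-κB subunit in the summed RPKM of the 5 subunits, in percent, for each of the 6 samples. NFKB2 takes 23.8% to 28.6% of the sum in shRNA-NC and 42.0% to 46.5% in shRNA-UBC9.

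TNFAIP3 was the member with the widest difference. A20 removes and adds ubiquitin chains on signalling proteins upstream of the IκB kinases and so dampens NF-κB activation. TNFAIP3, at chr6:137867214-137883314, had 9.34, 10.6 and 3.76 RPKM in shRNA-NC and 77.0, 79.6 and 77.0 RPKM in shRNA-UBC9. The shRNA-UBC9 samples lay close together and the controls were spread widely, with replicate 3 lowest. In whole reads these are 1408, 1853 and 642 against 14018, 14161 and 10970. The log2 fold change was 3.42 (SE 0.33, adjusted p = 0.000256), between 2.96 and 3.69 with single samples left out. In the annotation 1.47% of the exonic bases of TNFAIP3 are shared with WAKMAR2.

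NFKBIA, at chr14:35401079-35404749, had the highest mean RPKM of the members in both groups. It had 29.2, 40.3 and 16.6 RPKM in shRNA-NC and 86.2, 92.7 and 77.8 RPKM in shRNA-UBC9. The groups were far apart, and shRNA-NC replicate 3 was again the lowest control. The log2 fold change was 1.66 (SE 0.27, adjusted p = 0.00264). The level of TNFAIP3 relative to NFKBIA was 0.270 ± 0.047 in shRNA-NC and 0.914 ± 0.068 in shRNA-UBC9 (SD, n = 3 each), again without overlap, so TNFAIP3 increased by more than NFKBIA.

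NFKBIZ encodes IκBζ, a nuclear IκB that works with NF-κB at secondary response genes. Its values were 4.35, 7.59 and 5.08 RPKM in shRNA-NC and 32.2, 24.5 and 19.7 RPKM in shRNA-UBC9. The groups were well apart, and the shRNA-UBC9 samples were more spread than for any other member on the log2 scale (SD 0.35). The log2 fold change was 2.16 (SE 0.23, adjusted p = 0.000388).

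The other classical IκB genes moved little. NFKBIE, which encodes IκBε, had 6.85, 6.97 and 5.02 RPKM in shRNA-NC and 8.78, 9.25 and 8.83 RPKM in shRNA-UBC9. The groups did not overlap, and the log2 fold change was 0.52 (SE 0.13, adjusted p = 0.0166). Without shRNA-UBC9 replicate 2 the adjusted p-value was 0.0529 at a log2 fold change of 0.50. NFKBIB, which encodes IκBβ, had 9.44, 8.86 and 7.90 RPKM in shRNA-NC and 7.73, 10.7 and 10.5 RPKM in shRNA-UBC9. Its lowest value was an shRNA-UBC9 sample, and the log2 fold change of 0.13 (SE 0.14, adjusted p = 0.492) did not pass the test. NFKBIA made up 64.1% ± 7.8 of the summed NFKBIA, NFKBIB and NFKBIE level in shRNA-NC and 82.1% ± 1.9 in shRNA-UBC9 (SD, n = 3 each).

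**Figure D3:**
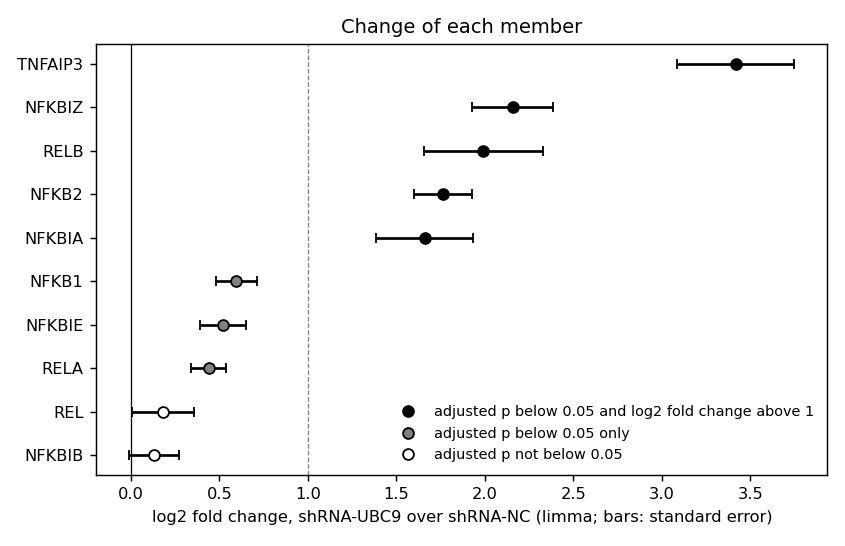
Log2 fold change of shRNA-UBC9 over shRNA-NC for each member, with the standard error from limma as bars. Filled black points are DEGs, grey points have an adjusted p-value below 0.05 with a log2 fold change under 1, white points did not pass the test, and the dashed line marks 1. Values run from 0.13 for NFKBIB to 3.42 for TNFAIP3.

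The transcripts of the IκB genes and TNFAIP3 were also set against RELA. NFKBIA had 1.46, 2.45 and 0.951 RPKM per RPKM of RELA in shRNA-NC and 3.65, 3.91 and 3.03 in shRNA-UBC9. For TNFAIP3 the ratio was 0.466, 0.645 and 0.216 in shRNA-NC and 3.26, 3.36 and 3.00 in shRNA-UBC9. For NFKBIZ it was 0.324 ± 0.126 and 1.06 ± 0.30 (SD, n = 3 each). For these 3 genes the ratio was higher in every shRNA-UBC9 sample. The ratio of NFKBIB was lower in every shRNA-UBC9 sample, though by a narrow margin, with 0.454 to 0.539 in shRNA-NC and 0.327 to 0.450 in shRNA-UBC9. RELA itself rose 1.36-fold, so a gene with an unchanged level falls relative to it. The level of NFKBIB itself overlapped between the groups. Without scaling to RELA, 25.7% of all tested genes were higher and 25.4% lower without overlap. The shares after scaling to RELA were not computed. The ratio of NFKBIE overlapped between the groups, at 0.351 ± 0.069 and 0.369 ± 0.023 (SD, n = 3 each).

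**Figure D4:**
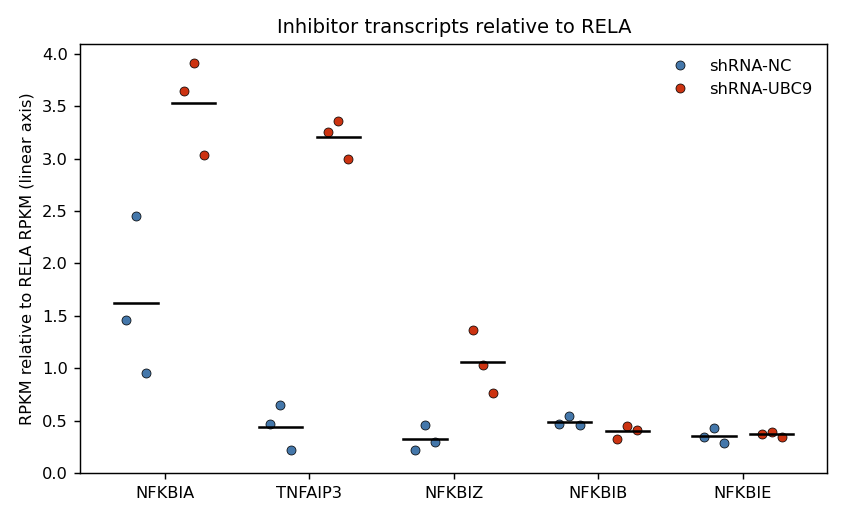
RPKM of each IκB gene and of TNFAIP3, divided by the RPKM of RELA in the same sample, on a linear axis from 0. Points are samples (shRNA-NC in blue, shRNA-UBC9 in red) and black bars are group means. TNFAIP3 moves from at most 0.645 to at least 3.00.

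The order of the RPKM levels, which depends on the gene lengths used, changed between the groups. In shRNA-NC the order of mean RPKM was NFKBIA, RELA, NFKB2, NFKB1, NFKBIB, TNFAIP3, NFKBIE, NFKBIZ, RELB and REL. Only the steps from RELA to NFKB2 and from NFKBIZ to RELB had ranges that were apart, and all other neighbours overlapped. In shRNA-UBC9 the order was NFKBIA, TNFAIP3, NFKB2, NFKBIZ, RELA, NFKB1, RELB, NFKBIB, NFKBIE and REL. TNFAIP3 moved from rank 6 to rank 2 and NFKBIZ from rank 8 to rank 4. In this group the neighbours NFKBIA and TNFAIP3, NFKBIZ and RELA, RELB and NFKBIB, and NFKBIB and NFKBIE overlapped in range.

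The members also differed in how they varied within a group. The SD of log2 values among the shRNA-NC samples was 0.81 for RELB, 0.80 for TNFAIP3 and 0.65 for NFKBIA, whereas the median over all tested genes was 0.13. In shRNA-UBC9 the SD was 0.11 for RELB, 0.03 for TNFAIP3 and 0.13 for NFKBIA, beside a median of 0.14. For 9 of the 10 members the SD was smaller in shRNA-UBC9, as for 46.4% of the tested genes, and NFKBIB was the exception. Among the controls, replicate 2 was highest for 8 members and replicate 3 lowest for 8 members, which held for 41.2% and 24.0% of the tested genes. The median log2(RPKM + 0.1) of 23 tested NF-κB target genes followed the same order among the controls, with 2.75 in replicate 2, 2.22 in replicate 1 and 1.43 in replicate 3. In shRNA-UBC9 these medians were 5.56, 5.80 and 5.53. Whether the controls differed in handling was not tested.

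Other genes of the pathway were taken from lists. Of 70 listed genes 65 were tested. Up-regulation by the DEG rule was found for 20 of them and down-regulation for 0, beside 5.2% and 2.7% of all tested genes. The count was 11 when at least 1 RPKM was required in all samples. In 17 of the 20 every control also had at least 0.5 RPKM. The rest were CCL20, with every control under that value, and TNF and BCL2A1, with controls on both sides of it. In shRNA-NC TNF had 0.940, 1.55 and 0.282 RPKM and BCL2A1 had 0.400, 0.716 and 0.190 RPKM. The target list held most of them, with 16 of 23 tested genes up-regulated and a median log2 fold change of 2.60. CCL20, a chemokine, had 0.200, 0.495 and 0.286 RPKM in shRNA-NC and 146.7, 91.2 and 46.9 RPKM in shRNA-UBC9. With every control under 0.5 RPKM it entered the test through the shRNA-UBC9 samples alone, and its fitted log2 fold change of 7.71 is given as a description. The next values of the list were 6.49 for PTGS2, the inducible cyclooxygenase, 5.97 for BCL2A1, a survival factor of the BCL2 family, and 5.46 for CXCL3, a neutrophil chemokine. Against that direction, 1 target gene was lower and passed the test, GADD45B, a stress response gene, which had 10.03 ± 0.42 RPKM in shRNA-NC and 7.29 ± 0.72 RPKM in shRNA-UBC9 (SD, n = 3 each). Many of these target genes are known from earlier results of these data to rise, so the list is no independent evidence of its direction.

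Upstream of the subunits, 2 of 13 genes of kinases and their partner proteins were DEGs, both up-regulated. By the same rule 5.2% of all tested genes were up-regulated and 2.7% down-regulated. At an adjusted p-value below 0.05 and any fold change, 3 genes of this list were higher and 2 lower, shares near those of all tested genes (18.8% and 18.0%). IKBKE, an IκB kinase-related kinase, rose by 1.37 on the log2 scale (adjusted p = 5.3e-05) and RIPK2, the kinase downstream of NOD receptors, by 1.21 (adjusted p = 0.000406). The genes of the core IκB kinase complex differed among themselves. IKBKB had 5.22 ± 0.38 RPKM in shRNA-NC and 3.91 ± 0.41 RPKM in shRNA-UBC9 (SD, n = 3 each, adjusted p = 0.0196), while CHUK (adjusted p = 0.0708) and IKBKG (adjusted p = 0.276) did not pass the test. MAP3K14, the kinase NIK that triggers p100 processing, averaged 5.32 ± 0.33 RPKM in shRNA-NC and 2.83 ± 0.13 RPKM in shRNA-UBC9 (SD, n = 3 each), and its log2 fold change was -0.89 (adjusted p = 0.000387). IKBKB, CHUK, IKBKG, MAP3K14 and GADD45B, like the cell type markers given above, fall outside the naming rule and were singled out after their values were seen. The median log2 fold change over this upstream list was 0.18.

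Among 10 tested A20 partners and other ubiquitin editors, 2 were DEGs, both up-regulated. Of all tested genes 5.2% were up-regulated and 2.7% down-regulated by this rule. TNIP1, a direct binding partner of A20, averaged 21.0 ± 4.8 RPKM in shRNA-NC and 98.7 ± 6.4 RPKM in shRNA-UBC9 (SD, n = 3 each) and rose by 2.25 on the log2 scale (adjusted p = 5.4e-05). ZC3H12A, the RNase Regnase-1 that degrades inflammatory mRNAs, averaged 5.37 ± 2.47 and 35.1 ± 3.2 RPKM and rose by 2.81 on the log2 scale (adjusted p = 0.000522). Of 14 ubiquitin ligases and adaptors, the DEGs were BIRC3, encoding cIAP2, with a log2 fold change of 2.32 (adjusted p = 0.00336) and TRAF1, an adaptor of TNF receptors, with 2.03 (adjusted p = 1.96e-05), both of which are also in the target list. At an adjusted p-value below 0.05, 7 genes of this list were higher and 2 lower, and among the A20 partners 4 were higher and 1 lower, beside 18.8% and 18.0% of all tested genes. None of the 7 other IκB-like genes and inhibitors was a DEG, and 4 were higher with an adjusted p-value below 0.05. The medians of these lists were 0.28, 0.19 and 0.36.

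**Figure D5:**
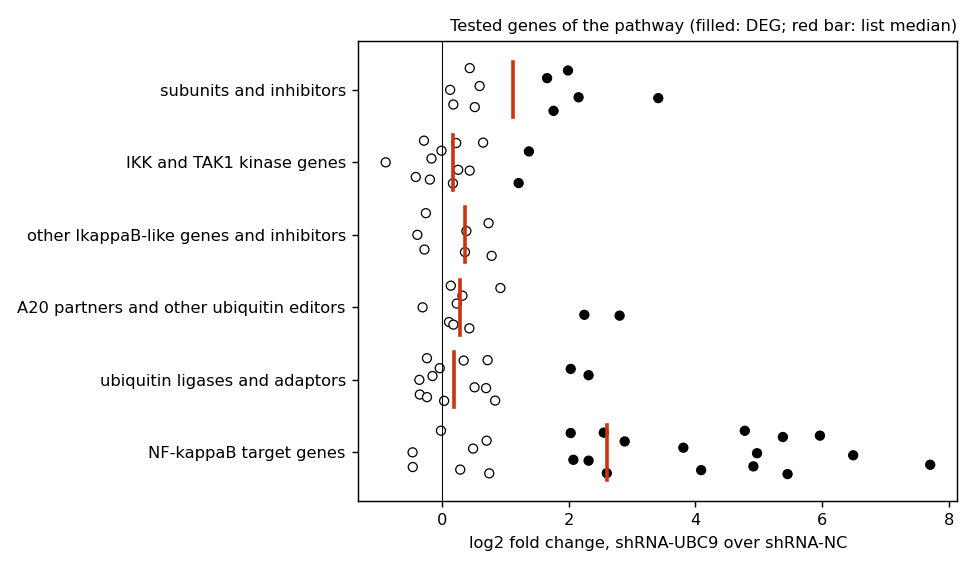
Each point is a tested gene, placed by its log2 fold change of shRNA-UBC9 over shRNA-NC, in 1 row per list. Filled points are DEGs and red bars are list medians, which are 1.13 for the subunits and inhibitors, 2.60 for the target genes and between 0.18 and 0.36 for the other lists.

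The profile of TNFAIP3 over the 6 samples was compared with that of every tested gene, each centred on its own mean. The nearest by Euclidean distance on the log2 scale was POU2F2, a transcription factor gene, at 0.62, followed by IL1A at 0.66, CTC-378H22.1 at 0.68, G0S2 at 0.74 and ZC3H12A at 0.78. POU2F2 had 0.270, 0.503 and 0.166 RPKM in shRNA-NC and 4.37, 4.22 and 3.56 RPKM in shRNA-UBC9. IL1A, which encodes interleukin-1α, had 10.3, 14.03 and 7.39 RPKM in shRNA-NC and 123.5, 134.0 and 100.9 RPKM in shRNA-UBC9. For both, as for TNFAIP3, the controls were highest in replicate 2 and lowest in replicate 3. These genes were picked for likeness over the same samples, so the shared order is a description only. G0S2 had 38.3, 37.9 and 26.2 RPKM in shRNA-NC, with replicate 1 highest. CTC-378H22.1 had every control under 0.5 RPKM and entered the test through the shRNA-UBC9 samples alone. The nearest members were RELB, at position 71 of the tested genes, and NFKBIZ, at position 111.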

How the data were processed

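Polyadenylated RNA of 3 shRNA-NC and 3 shRNA-UBC9 samples was sequenced. The authors trimmed adaptors, aligned to GRCh38 in the CLC Biomedical Genomics Workbench under default parameters, and deposited RPKM values per gene and sample. The annotation release, the use of strand and the treatment of multiply mapped reads are not given in the sources used here. RPKM is not corrected for RNA composition. Genes with at least 0.5 RPKM in at least 3 of the 6 samples were fitted on log2(RPKM + 0.1) with limma 3.58.1 in R 4.3.3 (eBayes with an intensity trend, no block), with Benjamini-Hochberg adjustment over all of them. The pseudocount understates the change of low genes. The cutoffs for DEGs were an absolute log2 fold change above 1 and an adjusted p-value below 0.05. Mapped reads were found from genes whose GENCODE v44 exon length gave 1 read in a sample, and a member's reads from the length between 300 and 25000 bases that made all 6 values whole within 0.02 reads. Members had 127 to 14161 reads, and errors from reads cover counting only. The members, lists and comparisons were chosen with earlier results of these data known. Named genes were all members, the 4 called genes of each pathway list with the largest absolute log2 fold change (fewer where fewer were called), and the 5 genes nearest to the member with the largest change. The level of the gene targeted by the shRNA is not reported here. Scripts were tested on simulated data. Alternatives were other pseudocounts and filters, quantile normalization, median scaling, no trend, a replicate block, unadjusted p-values and leaving out each sample. Python 3.11.15 with numpy 2.4.6, pandas 2.3.3, scipy 1.17.1 and matplotlib 3.10.9 was used for the rest.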

Additional observations from a re-analysis of the deposited data

How the results depend on the processing

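By limma, 5 members were called up-regulated and 0 down-regulated under each of 15 alternatives. With unadjusted p-values below 0.05 this was fixed beforehand, since the fit is the same and only these 5 members exceed the fold change cutoff. The number of members with an adjusted p-value below 0.05 stayed between 7 and 8 when single samples were left out. All 10 members kept their sign in every alternative run, and all but NFKBIE kept their side of the threshold. With single samples left out, the log2 fold change ranged from 2.96 to 3.69 for TNFAIP3, 1.98 to 2.39 for NFKBIZ, 1.54 to 2.32 for RELB, 1.57 to 1.87 for NFKB2, 1.31 to 1.95 for NFKBIA, 0.49 to 0.70 for NFKB1, 0.37 to 0.60 for NFKBIE, 0.38 to 0.52 for RELA, 0.07 to 0.35 for REL and 0.05 to 0.28 for NFKBIB. The highest adjusted p-value of NFKBIE among these, 0.0529 at a log2 fold change of 0.50, came without shRNA-UBC9 replicate 2. The count of DEGs over all genes was 981, 646 up-regulated and 335 down-regulated, between 926 and 1065 with samples left out, 552 with a pseudocount of 1, and 552 when at least 1 RPKM was required in all samples. That filter tests fewer genes, and 11 pathway genes were called under it, against 20. Samples with the same replicate number did not deviate together (correlations of -0.37, 0.07 and -0.17 over the tested genes), so the numbers were not treated as pairs. The largest correlation across the groups, 0.53, was between shRNA-NC replicate 1 and shRNA-UBC9 replicate 3. These had the fewest mapped reads of their groups, 29800000 and 28200000. The part of depth in this shared deviation was not tested. With the replicate block the fit gave 974 DEGs, 5 members called up-regulated and 8 members with an adjusted p-value below 0.05. Depth limits REL and RELB most, with counting errors of 5.14% and 8.87% in their shallowest sample.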
